A study of Mus musculus with 3 samples.

Results

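Suprabasal bulge stem cells were compared with basal bulge stem cells of the resting mouse hair follicle, gene by gene. The genes compared were 11573 of the 49120 gene symbols in the files. Values of rows with the same symbol were summed, the libraries were put on a common scale, and genes with a mean of at least 1 over the 3 libraries of the study were kept. Rpl22 and Phf3 were left out because they are listed at 0 in the basal library, with 552 and 13.8 in the suprabasal library. Both populations were sorted from epidermis of the back skin of C57BL/6 mice, wild type and 7 weeks old, in the second telogen, the resting phase of the hair cycle. Thermolysin (0.25 mg/ml for 1 h) freed the epidermis from the dermis, and flow cytometry with antibodies against CD34 and the integrin chain Itga6 separated the cells. The suprabasal library (S) holds CD34+ cells with low Itga6, and the basal library (B) holds CD34+ cells with high Itga6. Library N, of CD34-negative cells, entered the scaling and the filter and is given beside S and B as a reference level.

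Each population is a pool of RNA from 4 mice, so there was 1 library per population and no measure of the spread between animals. No test was made, and every difference below describes 2 libraries. A level is a scaled FPKM, that is, fragments per kilobase of transcript, relative to all mapped fragments, after scaling. A log2 ratio is the level plus 1 in S over the level plus 1 in B, so positive values point to S. A gene is called higher in 1 library when that ratio is at least 2-fold, a log2 ratio of 1 or more in size. A fold given in the text is the plain ratio of the levels, without the added 1. Because each library is a bulk sample, fewer cells of a type and less RNA per cell cannot be told apart.

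Below the sebaceous gland of each hair follicle lies the bulge, where follicle stem cells rest between growth phases. Its outer layer lies on the basement membrane, is held there by integrins and hemidesmosomes, and supplies the cells of the next hair growth. Its inner layer rings the old hair shaft, has no contact with the basement membrane, and is known as a source of FGF18 and BMP6, secreted factors that hold the stem cells at rest. CD34 marks the mouse bulge, and Itga6 pairs with Itgb4 in the hemidesmosome.

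The depth recovered from the values was 31.3 M fragments in S, 32.7 M in B and 35.5 M in N. A transcript of 2 kb at a level of 1 FPKM then rests on 62.5 fragments in S and 65.3 in B, so counting alone gives an SD of 12.6% and 12.4%. At 10 FPKM the counting SD was 4.00% and 3.91%. These figures cover counting error and leave out the amplification and the mice. Among the genes of the sort, Cd34 was far above N in both bulge libraries. Between S and B, Cd34 and Itga6 were both within 2-fold. Cd34 was at 215 in S, 144 in B and 0.201 in N, and Itga6 at 49.3 in B, 33.1 in S and 115 in N.

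Marker genes were then looked at beside the labels. Krt15, the classical bulge keratin, was at 3641 in S, 1855 in B and 1014 in N, and Krt5, the partner of Krt14 in basal keratinocytes, at 959 in S, 810.3 in B and 818 in N. Markers of the inner layer, chosen like the other lists with results of these data known, were divided: of 8 measured, Fgf18, Bmp6 and Krt75 were higher in S, Krt17 was higher in B, and 4 had a log2 ratio below 0. Krt6a, which marks the inner layer, was at 115 in S, 72.3 in B and 0.549 in N. Krt1 and Krt10, keratins of the suprabasal layers of the interfollicular epidermis, were higher in B (Krt10 at 233 in B, 55.9 in S and 372 in N). These markers were chosen with the results known and do not test the label.

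Markers of other cell types were mostly near 0 in both bulge libraries. The summed level was 0.372 in S and 1.08 in B over 8 mast cell genes, with 5 of them at 0 in both (Cma1, Fcer1a, Mcpt4, Ms4a2 and Tpsb2). Over 10 endothelial genes it was 1.22 in S and 3.25 in B, with Plvap at 0 in both, and over 7 Merkel cell genes 0.158 and 0.173. Red blood cell genes (5) summed to 3.62 in S and 2.18 in B. Lists of pericytes (10 genes; 9.46 and 7.16) and sebocytes (10 genes; 58.5 and 51.0) held genes that keratinocytes also express, such as Mgst1, at 36.6 (S) and 24.7 (B). The remaining lists are given beside the gene groups they touch.

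Promoter windows of 4 genes are shown because they belong to genes that set the layers apart. Fgf18 and Pmp22 had the highest levels in S among the 25 genes of largest ratio on the S side, and S100a4 had the highest level in B among the 25 towards B. Aspn, a matrix proteoglycan gene of the basal layer, was picked after its window was seen. The sequences are from RefSeq (GRCm38.p6), run 5′ to 3′ on the strand of the gene, and cover the 250 bases before the annotated start. Capitals mark matches, on either strand, to 4 motifs: TATAAA (the TATA box), TGANTCA (the AP-1 site), GGAATG (the TEAD site) and GGGCGG (the GC box).
Fgf18, chr11:33147401-33147650, minus strand: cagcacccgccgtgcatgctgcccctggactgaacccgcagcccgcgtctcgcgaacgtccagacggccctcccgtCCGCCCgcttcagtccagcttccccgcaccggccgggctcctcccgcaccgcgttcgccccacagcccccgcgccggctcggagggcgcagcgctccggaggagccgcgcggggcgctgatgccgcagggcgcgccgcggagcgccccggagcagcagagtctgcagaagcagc
Pmp22, chr11:63128732-63128981, plus strand: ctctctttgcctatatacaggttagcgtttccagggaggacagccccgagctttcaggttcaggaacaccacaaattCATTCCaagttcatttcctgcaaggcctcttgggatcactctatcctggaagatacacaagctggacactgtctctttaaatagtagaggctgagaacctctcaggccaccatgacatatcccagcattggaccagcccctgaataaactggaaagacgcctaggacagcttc
S100a4, chr3:90603520-90603769, plus strand: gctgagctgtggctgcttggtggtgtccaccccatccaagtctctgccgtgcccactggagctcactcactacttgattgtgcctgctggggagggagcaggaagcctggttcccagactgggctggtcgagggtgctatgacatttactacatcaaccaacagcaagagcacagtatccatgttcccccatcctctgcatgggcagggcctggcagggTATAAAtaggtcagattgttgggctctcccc
Aspn, chr13:49544193-49544442, plus strand: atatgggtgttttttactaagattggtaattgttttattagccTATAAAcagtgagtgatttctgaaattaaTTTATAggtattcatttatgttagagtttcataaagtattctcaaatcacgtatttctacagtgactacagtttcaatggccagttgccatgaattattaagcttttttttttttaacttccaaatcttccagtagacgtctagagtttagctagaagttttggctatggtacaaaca
The Fgf18 window held a GC box on the opposite strand at -174, counted in bases from the start, and its GC content was 77.2%. The first of the Pmp22 windows in the RefSeq table held a TEAD motif on the opposite strand at -173, and its GC content was 48.8%. The table holds 3 further Pmp22 windows, with a GC content of 61.2%, 64.8% and 73.6%. None of them held a TEAD motif, and the first and last of them held 3 GC boxes each. The S100a4 window held a TATA box at -31, and the Aspn window held 2 further from the start, at -207 and, on the opposite strand, at -178. GC content was 57.2% in the S100a4 window and 30% in the Aspn window.

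Over all measured protein-coding genes the same motifs were counted in windows of 250 bases before and 50 after the start, on both strands. Windows were at hand for 7886 of 9914 genes, among them 222 of 282 higher in S and 326 of 440 higher in B, and a gene can have several. A TATA box was in 9.87% of the windows of genes higher in S, 14.1% of those higher in B and 6.97% of all 10130 windows. The GC box was in 62.4%, 48.2% and 64.2%. The AP-1 motif was in 7.32%, 8.93% and 4.92%, and the TEAD motif in 16.9%, 12.9% and 11.8%. A match says only that the letters are there.

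**Figure D1:**
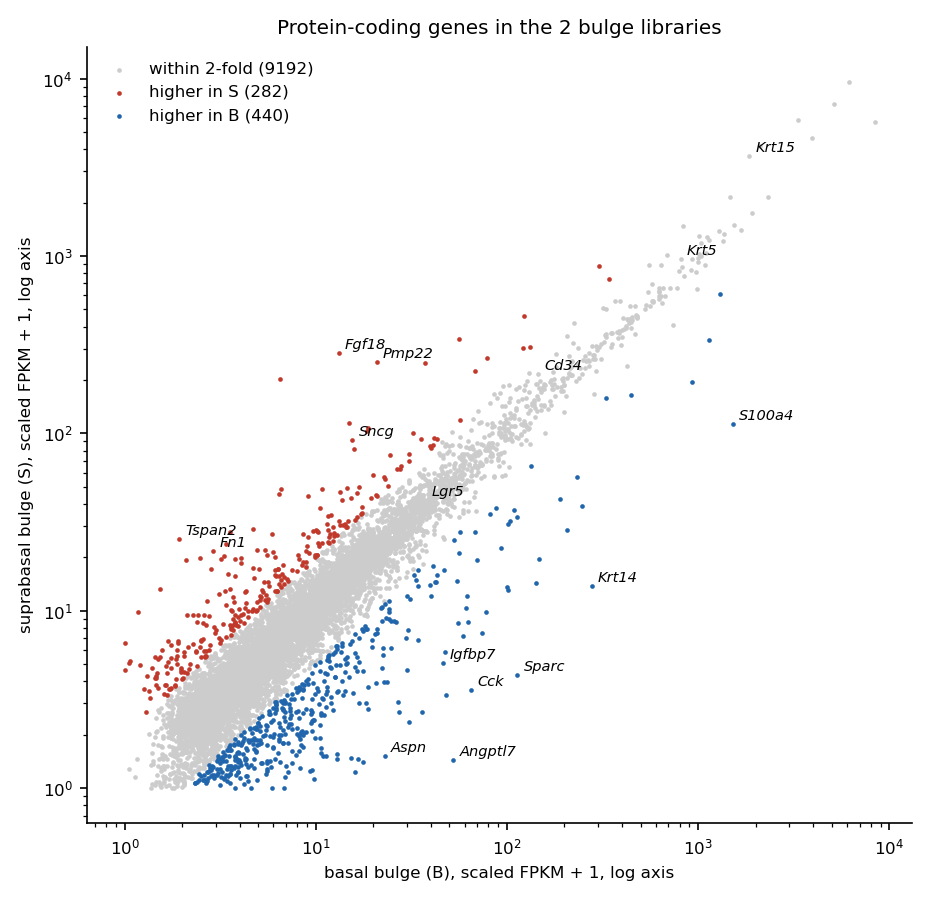
Level in B (horizontal) and in S (vertical) of each measured protein-coding gene, as scaled FPKM plus 1 on log axes. Red points are the 282 genes at least 2-fold higher in S, blue points the 440 at least 2-fold higher in B, and grey points the 9192 within 2-fold, and the named genes show Fgf18 and Pmp22 at the S edge and Krt14, Sparc and S100a4 at the B edge.

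Most genes were at close levels in the bulge layers, and more genes were higher in B than in S. Of 11573 genes, 448 (3.87%) were at least 2-fold higher in S and 686 (5.93%) at least 2-fold higher in B, together 9.80%. At 4-fold the counts were 146 (1.26%) and 231 (2.00%). The median log2 ratio was 0.06, and the middle of the distribution was narrow, with the 25th percentile at -0.20 and the 75th at 0.30. Within 1.5-fold lay 78.7% of the genes. The tails were unequal, at -1.13 for the 5th percentile and 0.86 for the 95th. The scatter plot shows the points spread further on the B side at low levels.

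The excess towards B lay among genes of low level. Of 2843 protein-coding genes with a mean level under 3 in the bulge libraries, 52 were higher in S and 166 in B. Between 3 and 10 the counts were 105 and 176 of 4058 genes. Between 10 and 30 they were 84 and 59 of 2089, and from 30 to 100 they were 29 and 28 of 646. At 100 or more, 12 of 278 genes were higher in S and 11 in B. At the edge of the 2-fold rule, Sun2 was just inside towards S (16.7 in S against 7.86 in B) and Znhit6 just outside (31.6 in S against 15.3 in B). Towards B, Ism1 was just inside (11.7 in B against 5.34 in S) and Wnk4 just outside (5.28 in B against 2.14 in S). At the edge of the filter, Ppt2 had a mean of 1.00 and Chek1 of 0.999.

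**Figure D2:**
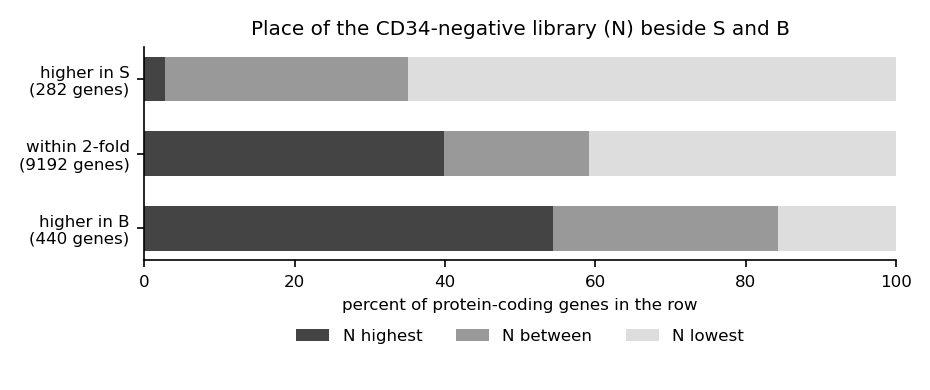
Share of protein-coding genes (percent) whose level in the CD34-negative library N was above both bulge libraries (dark), between them (mid grey) or below both (light), for genes higher in S, within 2-fold, and higher in B. N was lowest for 64.9% of the genes higher in S and highest for 54.3% of the genes higher in B.

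The 2 sets of genes stood differently beside the CD34-negative cells. Among the 282 protein-coding genes higher in S, N had the lowest level of the 3 libraries for 183 (64.9%), was between S and B for 91 (32.3%) and had the highest level for 8 (2.84%). Among the 440 higher in B, N was highest for 239 (54.3%), between for 132 (30%) and lowest for 69 (15.7%). For the 9192 genes within 2-fold, N was highest for 39.8% and lowest for 40.8%. Since N entered neither side of the ratio, these places are a further description of the same 2 gene sets, but N did enter the filter.

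**Figure D3:**
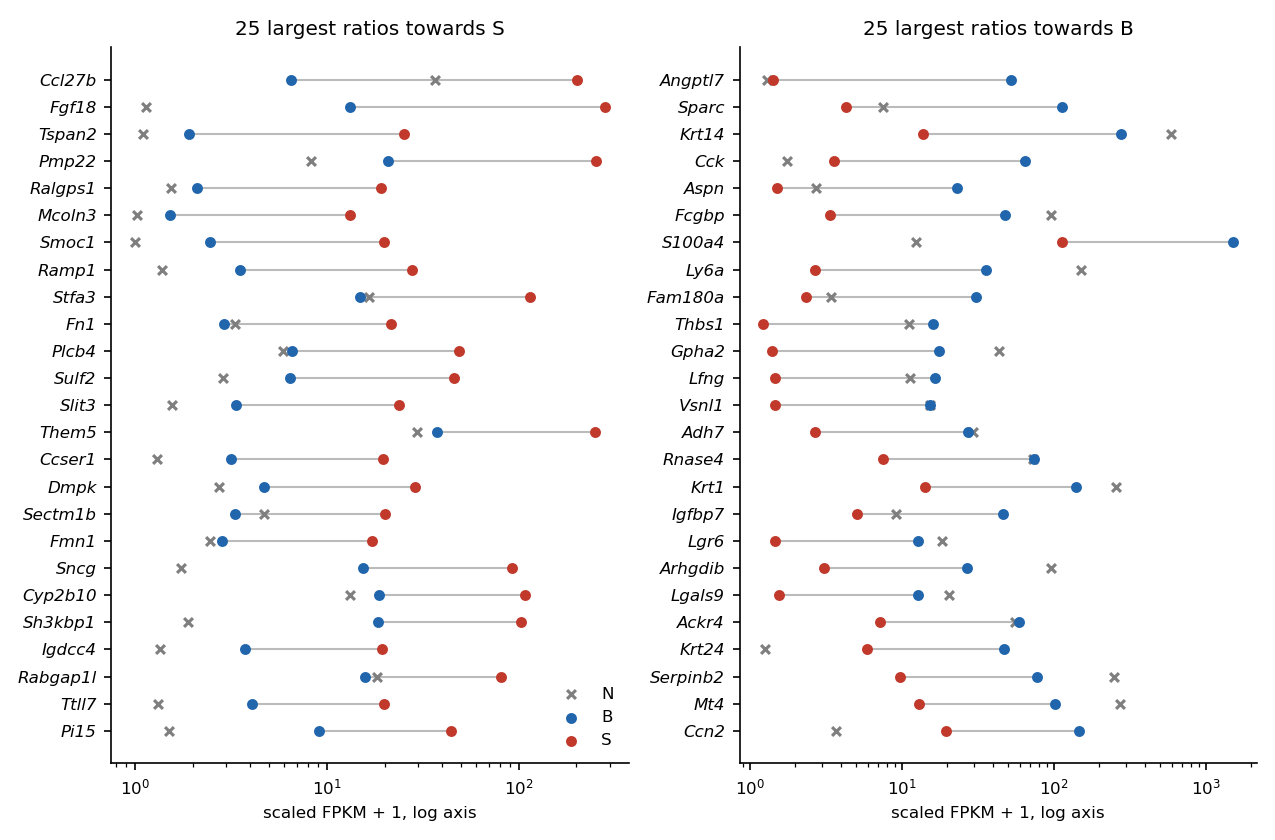
Levels in S (red), B (blue) and N (grey crosses) of the 25 genes with the largest log2 ratio towards S (left) and towards B (right), as scaled FPKM plus 1 on a log axis, with the S to B distance as a line. N is the lowest library for 20 of 25 genes on the left and the highest for 12 of 25 on the right.

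The 25 genes furthest towards S are described first. Fgf18 (ENSMUSG00000057967, chromosome 11, 33117430 to 33147400 in mm10), the growth factor of the inner layer, was at 282 in S, 12.2 in B and 0.148 in N, and S exceeded B 23.1-fold. Pmp22 (chromosome 11, 63128982 to 63159547), known from peripheral myelin, was at 253 in S, 19.9 in B and 7.25 in N, which is 12.7-fold higher in S. Both stood far above N as well as B. Ralgps1, an exchange factor for Ral GTPases, was at 18.2 in S, 1.10 in B and 0.543 in N. Plcb4, a phospholipase C that acts below G proteins, was at 47.8 in S, 5.61 in B and 4.95 in N. Sulf2, an enzyme that removes sulfate groups from heparan sulfate outside the cell, was at 44.8 in S, 5.41 in B and 1.87 in N. These 3 enzymes and regulators had log2 ratios of 3.19, 2.89 and 2.84, with N at or below the B level for each. Them5, a thioesterase of mitochondria, was at 248 in S, 36.5 in B and 28.6 in N. Sh3kbp1, an adaptor in receptor endocytosis, was at 102 in S, 17.4 in B and 0.896 in N, so it was high in both bulge layers beside N. Cyp2b10, a cytochrome P450, was at 106 in S, 17.8 in B and 12.3 in N.

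The others of these 25 ranged from 5.31-fold to 26.5-fold, apart from Ccl27b. Pi15, a secreted protein of the CAP family, was at 43.1 in S, 8.12 in B and 0.510 in N. Rabgap1l, a GTPase-activating protein for Rab proteins, was at 80.3 in S, 14.9 in B and 17.4 in N. Dmpk, the kinase named for myotonic dystrophy, was at 27.9 in S, 3.69 in B and 1.75 in N. N was between S and B for Rabgap1l and lowest for Pi15 and Dmpk. Fmn1, a formin that builds actin filaments, was at 16.1 in S, 1.83 in B and 1.47 in N, and Ttll7, which adds glutamate chains to tubulin, at 18.9 in S, 3.07 in B and 0.327 in N. Igdcc4, an immunoglobulin family receptor, was at 18.5 (S) and 2.76 (B), Ccser1 at 18.7 (S) and 2.18 (B) and Sectm1b at 19.2 (S) and 2.32 (B). Ccl27b (201 (S) and 5.49 (B)) and Stfa3 (114 (S) and 13.9 (B)) belong to families with near-identical copies, so their levels are uncertain.

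The 25 genes furthest towards B are described next. Sparc (ENSMUSG00000018593, chromosome 11, 55394500 to 55423183 in mm10), a collagen-binding matrix protein, was at 112 in B, 3.32 in S and 6.59 in N, which is 33.9-fold higher in B. Krt14 (chromosome 11, 100203162 to 100207548), a keratin typical of basal keratinocytes, stood at 277 in B, 12.7 in S and 588 in N, which is 21.7-fold higher in B. N was highest for Krt14 and nearer to S than to B for Sparc, so these genes differ in their place beside N. S100a4 (chromosome 3, 90603771 to 90606045), a calcium-binding protein, was at 1521 in B, 112 in S and 11.5 in N. Fcgbp, a mucin-like protein that binds IgG, was at 47.1 in B, 2.37 in S and 95.5 in N. Gpha2, a subunit of a glycoprotein hormone, was at 16.7 in B, 0.400 in S and 42.6 in N. For the latter 2 the highest level was in N. Vsnl1, a neuronal calcium sensor, was at 14.3 in B, 0.469 in S and 14.3 in N, and Adh7, an alcohol and retinol dehydrogenase, at 26.4 in B, 1.69 in S and 28.4 in N. Both were at about the same level in B and N and low in S.

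Arhgdib, a regulator of small GTPases, was at 25.8 in B, 2.08 in S and 95.1 in N, and Lgals9, the lectin galectin-9, at 11.8 in B, 0.564 in S and 19.5 in N. Ackr4, a scavenger receptor for chemokines, was at 58.1 in B, 6.22 in S and 54.5 in N. Mt4, a metallothionein of stratified epithelia, was at 101 in B, 12.1 in S and 272 in N. S was the lowest library for all 4. Krt24, at 46.4 in B, 4.88 in S and 0.262 in N, was lower in S than in B and lowest in N. Angptl7, a secreted angiopoietin-like protein, at 51.2 in B, 0.433 in S and 0.307 in N, was low in N and S alike. Cck, the precursor of the peptide cholecystokinin, followed them at 63.9 in B, 2.58 in S and 0.762 in N. Fam180a was at 29.8 in B, 1.36 in S and 2.44 in N. Rnase4, a secreted ribonuclease, was at 73.1 in B, 6.52 in S and 71.6 in N, and shares its locus with Ang, so their reads may not be cleanly divided.

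Lists of genes by function are described next by the number of measured members higher in S or in B and by the median log2 ratio. These are to be read against 3.87% and 5.93% of all genes and the median of 0.06. Over protein-coding genes alone the values were 2.84%, 4.44% and 0.08. Genes given in brackets with a log2 ratio alone, and genes within 2-fold that are not the most abundant of their list, were picked after their values were seen.

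**Figure D4:**
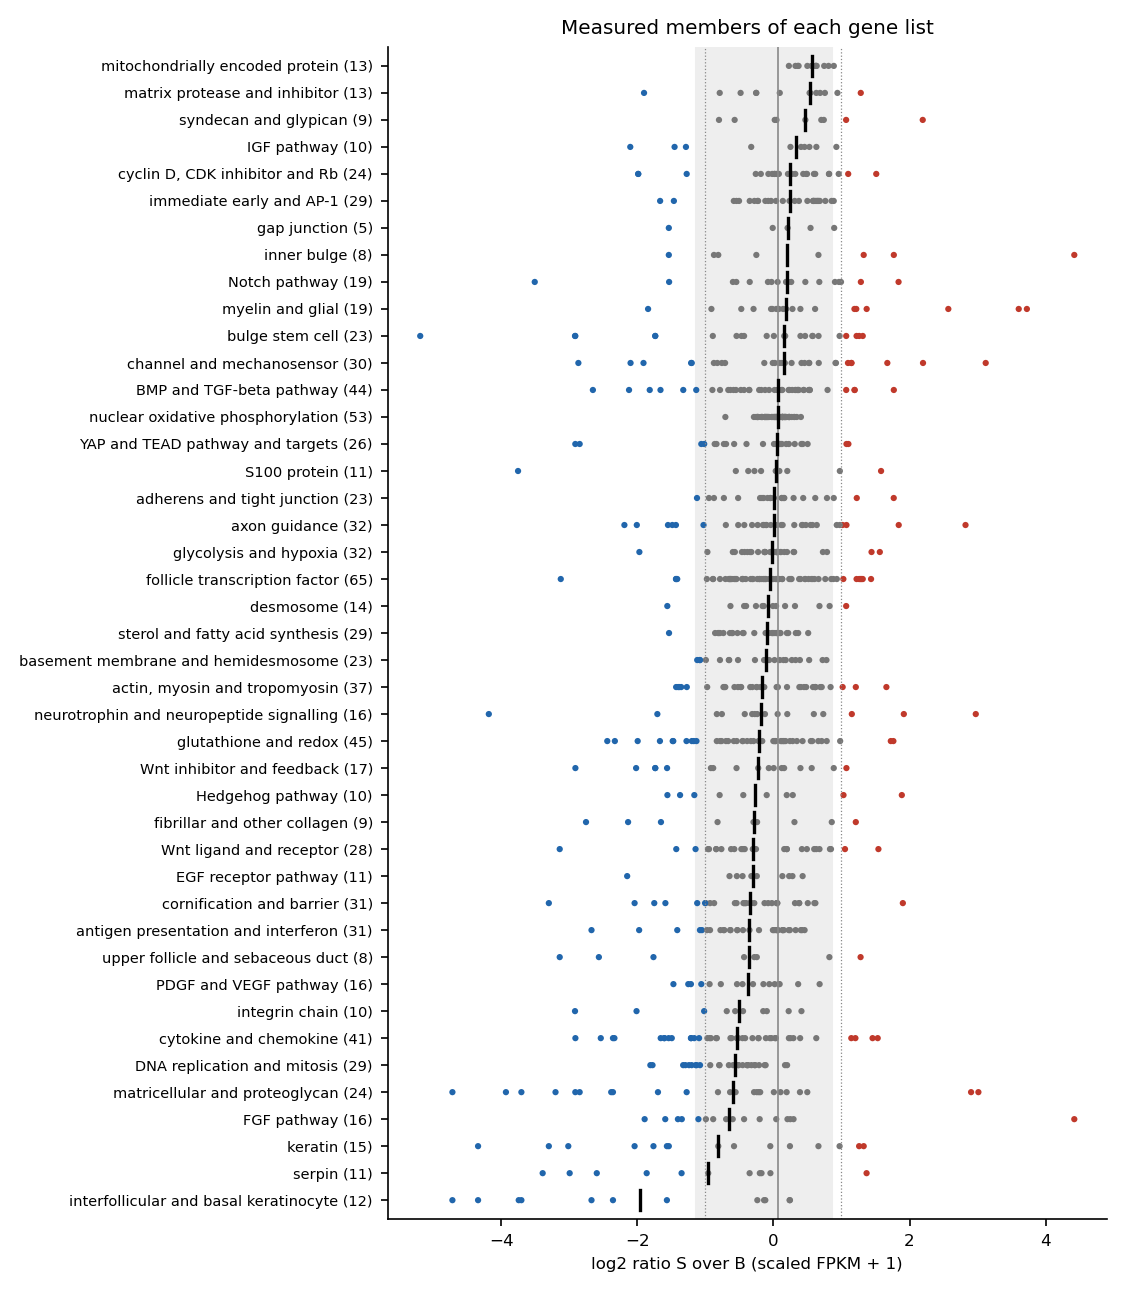
Log2 ratio S over B of each measured member of 43 gene lists (points, red at or above 1, blue at or below -1), the list median (black bar), the median of all genes (grey line) and the 5th to 95th percentile of all genes (grey band), with dotted lines at -1 and 1 and the number measured in brackets. The interfollicular and basal keratinocyte list, which holds the given markers Krt14 and Sparc, has the lowest median, at -1.96. The mitochondrially encoded list has the highest, at 0.56. All lists were chosen with earlier results of these data known.

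Bulge stem cell genes were divided between the layers. Of 23 measured, 4 were higher in S and 5 in B, with a median of 0.16 and a mean of -0.35. The 4 higher in S are transcriptional regulators. Nfatc1, a factor that holds bulge cells at rest, was at 27.7 in S, 10.5 in B and 3.95 in N, and Foxc1, which acts in the same setting, at 18.7 in S, 7.20 in B and 2.32 in N. Foxp1 was at 64.2 in S, 26.96 in B and 8.08 in N, and the BMP-induced regulator Id2 at 118 in S, 55.5 in B and 3.89 in N. N was lowest for each. Id2 fell short of 2-fold with the values as deposited (0.98), on the same total (0.94) and on the same upper quartile (0.97). Of the 5 higher in B, Angptl7, Ccn2, Sfrp1 and Dkk3 encode secreted proteins, and the fifth is the integrin chain Itgb6 (-2.91). Sfrp1, a Wnt inhibitor, was at 112 in B, 32.8 in S and 6.21 in N, and Dkk3 at 39.3 in B, 11.1 in S and 1.15 in N. The matrix protein gene Postn and the R-spondin receptor gene Lgr5 had log2 ratios of 0.01 and 0.16, and the follicle regulators Sox9 and Lhx2 had 0.47 and 0.66, in both bulge libraries above N.

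Inner bulge genes had 3 of 8 measured members higher in S and 1 in B, with a median of 0.21. Relative to all genes that median was 0.14, and it turned to -0.11 without the filter. The 3 were Fgf18, Bmp6 (1.77), at 3.77 in S, 0.399 in B and 0.0435 in N, and Krt75 (1.33), at 5.25 in S, 1.49 in B and 0.0867 in N. Krt17 went the other way, at 41.3 in B, 13.6 in S and 39.95 in N. Genes of interfollicular and basal keratinocytes had 7 of 12 measured members higher in B and 0 in S, with a median of -1.96. Beside Sparc, Krt14 and Thbs1 these were Ly6a (34.995 in B, 1.69 in S and 150.1 in N), the Sca-1 antigen, Ifitm3 (247 in B, 37.9 in S and 486 in N), Krt77 (-1.56) and Il33 (-2.36). The list did not move as 1 block, since Krt5, Trp63, Col17a1, Dst and Cd44 had log2 ratios between -0.24 and 0.24. It was chosen with results of these data known and holds the given markers Krt14 and Sparc, so its median is no test. Of 8 genes of the upper follicle and sebaceous duct, 3 were higher in B: Lgr6, an R-spondin receptor of cells above the bulge, at 11.9 in B, 0.463 in S and 17.4 in N, the defensin Defb6, at 60.3 in B, 9.37 in S and 326 in N, and Krt79, at 9.85 in B, 2.20 in S and 37.8 in N. N was the highest library for all 3. Gata6 (1.28) was higher in S.

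Keratins had 7 of 15 measured members higher in B and 2 in S, with a median of -0.81. Krt1, the first keratin of differentiating epidermis, was at 140.2 in B, 13.3 in S and 258 in N. Krt80, a keratin of late differentiation, was at 54.1 in S, 22.01 in B and 23.5 in N and was, with Krt75, 1 of the 2 higher in S. Krt14, Krt16 and Krt17 have similar sequences, so reads may be shared among them.

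Genes of cornification and the barrier had 6 of 31 members higher in B and 1 in S, with a median of -0.35. Krtdap, a secreted protein of differentiating keratinocytes, was at 1134 in B, 337 in S and 2868 in N. Abca12, the lipid transporter of the skin barrier, was at 11.7 in B, 3.21 in S and 24.6 in N. With Krt1 and Krt10, the rest of the 6 were the fatty acid elongase Elovl4 (-1.12) and the ceramide synthase Cers3, at 5.12 in B against 2.05 in S. All 6 were highest in N. Sbsn, which encodes suprabasin, was at 460.2 in S, 122 in B and 84.9 in N, and was higher in S. Dmkn, which encodes dermokine, was at 556 in S, 391.6 in B and 329 in N. The late genes Lor and Ivl were below 2 in both bulge libraries.

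Serpins, inhibitors of proteases, had 5 of 11 measured members higher in B and 1 in S, with a median of -0.96. Serpinb2, the plasminogen activator inhibitor of keratinocytes, was at 77.1 in B, 8.81 in S and 249 in N. Serpinb10 was at 23.8 in B, 1.36 in S and 16.98 in N and Serpinb11 at 17.3 in B, 2.02 in S and 0.599 in N. Both were near 2 or below in S, while N was high for Serpinb10 alone. Serpinb7 was at 11.1 in B, 3.75 in S and 34.9 in N, Serpina3n (-1.86) was also higher in B, and Serpinb1a (1.37) was higher in S. Clade B serpins are clustered gene copies, so reads may be shared. Among 11 genes of the S100 list, S100a4 was higher in B and S100g (1.58) in S, and the most abundant, S100a6, was at 4169 in S, 2119 in B and 311 in N, with a log2 ratio of 0.98.

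Counts past 2-fold in the cell junction lists, which are short, are to be read beside the 9.80% of all genes. In the desmosome list, Dsg1a, a desmoglein of differentiating layers, was higher in B at 41.5 in B, 13.4 in S and 89.3 in N, Dsc2 (1.07) was higher in S, and the other 12 of 14 were within 2-fold. Perp, the most abundant, was at 1472 in S, 829.9 in B and 1227 in N. Dsg1a and Dsg1b are near-identical copies. In the adherens and tight junction list, with 23 measured, Nectin4 was at 16.2 in S, 4.05 in B and 7.23 in N and Marveld2, the protein tricellulin of tight junctions, at 8.49 in S, 3.06 in B and 7.92 in N. Both were higher in S, while Cldn8, a claudin, at 7.44 in B, 2.88 in S and 4.42 in N, was higher in B. Cdh1, the E-cadherin gene, had a log2 ratio of -0.05, and Ctnnb1, which encodes beta-catenin, was at 188 (S) and 101 (B). Of 5 gap junction genes, Gja1, which encodes connexin 43, was higher in B at 13.5 in B, 3.99 in S and 36.9 in N.

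Integrins and matrix genes past 2-fold were mostly higher in B. Integrin chains had 3 of 10 measured members higher in B and 0 in S, with a median of -0.50. Itga3, which pairs with Itgb1 to bind laminin, was at 9.63 in B, 1.64 in S and 12.3 in N. Itgb6 (-2.91) and Itgb8 (-1.02), which pair with Itgav, were the others. Itgav itself was at 18.1 (S) and 13.3 (B), Itgb1 at 23.3 (S) and 32.04 (B) and Itgb4 at 22.1 (S) and 23.7 (B), and the most abundant chain was Itga6. Thus the chain on which the cells were sorted was itself within 2-fold, with a log2 ratio of -0.56.

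Basement membrane and hemidesmosome genes had 3 of 23 members higher in B and 0 in S, with a median of -0.10. Egfl6, which shapes the basement membrane of the bulge, was at 15.1 in B, 6.43 in S and 3.68 in N. Npnt, nephronectin, which anchors the muscle of hair erection to the bulge, was at 21.2 in B, 9.51 in S and 4.34 in N. Col7a1, the collagen of anchoring fibrils, was at 11.9 in B, 5.09 in S and 9.36 in N. All 3 lay just past 2-fold, with log2 ratios from -1.12 to -1.08. The hemidesmosome genes Col17a1 (161 (S) and 177 (B)), Dst (132 (S) and 143 (B)) and Plec (16.02 (S) and 17.3 (B)) were at close levels, as was the laminin-332 chain Lama3 (31.3 (S) and 25.8 (B)). Lamb3, another chain of that laminin, had a log2 ratio of 0.39.

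Matricellular proteins and proteoglycans, which act between cells and the matrix, had 10 of 24 measured members higher in B and 2 in S, with a median of -0.60. Aspn, the small proteoglycan asporin whose promoter window is shown above, was at 21.997 in B, 0.510 in S and 1.73 in N. Thbs1, thrombospondin 1, was at 14.97 in B, 0.227 in S and 10.2 in N. Igfbp7 was at 45.6 in B, 4.07 in S and 8.14 in N. These 3 and Sparc were all lower in S than in N. Ccn2 was at 147 in B, 18.6 in S and 2.73 in N and Ccn1 at 61.3 in B, 7.67 in S and 53.1 in N, so N was near B for Ccn1 and lowest for Ccn2. Smoc2 (-2.38), Bgn (-2.36), Thbs2 (-1.70) and Efemp1 (-1.27) complete the 10. The 2 higher in S were Fn1, fibronectin, at 20.7 in S, 1.90 in B and 2.31 in N, and Smoc1, at 18.9 in S, 1.47 in B and 0 in N. Smoc1 and Smoc2 are related calcium-binding matrix proteins, and they had opposite orders in the layers, with 0.336 (S) and 5.96 (B) for Smoc2.

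Collagens other than those of the basement membrane had 3 of 9 members higher in B and 1 in S. Col12a1, at 9.65 in B, 0.581 in S and 1.51 in N, led towards B, with Col5a2 (-2.13) and Col16a1 (-1.65), and Col8a1 (1.21) was higher in S. Col6a1 was the most abundant, at 25.9 in S, 13.9 in B and 0.242 in N. Genes of fibroblasts and the dermal papilla summed to 37.7 in S, 25.5 in B and 0.952 in N over 18 genes. Of these, Col1a1 was at 0.115 (S) and 0.0931 (B), while Col3a1, Lum, Dcn and Pdgfra were all below 0.5 in both. Col1a2 was at 1.34 in S, 1.77 in B and 0.103 in N, and Crabp1 at 0.210 in S and 0.802 in B. Col6a1, Col6a2 and Hhip made up most of the sum. The part of such cells in the collagen values was not tested beyond this.

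Syndecans and glypicans, heparan sulfate carriers of the cell surface, had 2 of 9 members higher in S and 0 in B, with a median of 0.47. Gpc6 was at 26.2 in S, 4.94 in B and 0.461 in N and Sdc1 at 84.6 in S, 39.8 in B and 27.2 in N. Sdc4, the most abundant, was at 218 in S, 130.1 in B and 129 in N. Sdc1 fell short of 2-fold with the values as deposited (log2 ratio 0.98), on the same total (0.94) and on the same upper quartile (0.97). Of 13 matrix proteases and inhibitors, Adam15, a membrane protease, was higher in S at 31.1 in S, 12.2 in B and 7.48 in N, and Mmp2 (-1.90) was higher in B. Mme, the peptidase CD10, was at 38.2 in S, 25.9 in B and 0.189 in N, and Timp2 at 36.7 in B, 20.8 in S and 1.82 in N. The median of this list was 0.53, and without the filter on low levels it lay at -0.035 relative to all genes.

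**Figure D5:**
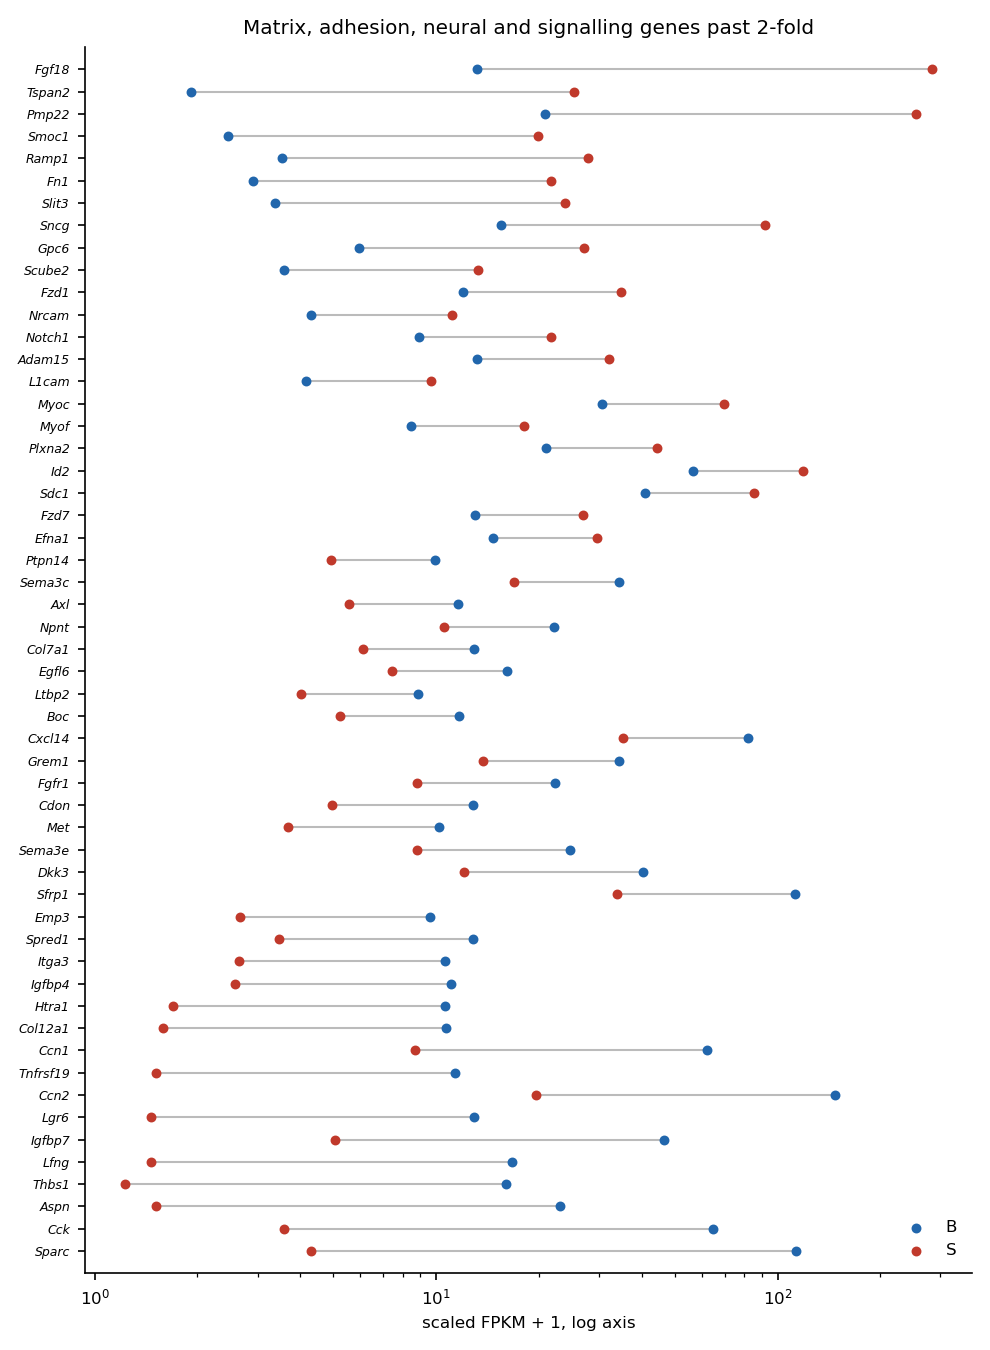
Levels in S (red) and B (blue), as scaled FPKM plus 1 on a log axis, of the 54 members of the matrix, adhesion, neural and signalling lists past 2-fold with a mean of at least 5 in the bulge libraries. The upper 22 genes are higher in S and the lower 32 higher in B, and Fgf18 and Sparc stand at the ends.

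Genes known from myelin and glia had 6 of 19 measured members higher in S and 1 in B, with a median of 0.19. Relative to all genes that median was 0.13, and without the filter it lay at -0.00487. Tspan2, a tetraspanin of oligodendrocytes, was at 24.3 in S, 0.918 in B and 0.0962 in N. Sncg, gamma-synuclein, was at 91.1 in S, 14.5 in B and 0.747 in N, and the adhesion molecule Nrcam at 10.1 in S, 3.29 in B and 0.262 in N. Pmp22, L1cam (1.22) and Myoc (1.19), at 68.9 in S, 29.6 in B and 0.371 in N, complete the 6, and N was below or close to the B level for each. Emp3, a relative of Pmp22, was at 8.57 in B, 1.67 in S and 1.16 in N, while its other relatives Emp1 and Emp2 had log2 ratios of 0.08 and 0.14. Defining genes of Schwann cells were near 0, with Sox10, Foxd3, Cdh19 and Gfra3 at 0 in S and Sox10 at 0.117 in B. The 10 genes of that list summed to 8.66 in S, 8.37 in B and 16.1 in N, most of it Erbb3, at 5.80 in S, 4.60 in B and 11.2 in N.

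Genes of axon guidance, secreted cues and their receptors, had 4 of 32 members higher in S and 6 in B, with a median of 0.01. Slit3, a ligand of Robo receptors, was at 22.9 in S, 2.38 in B and 0.565 in N. Plxna2, a semaphorin receptor, was at 43.2 in S, 20.03 in B and 3.28 in N, Efna1, an ephrin, at 28.6 in S, 13.6 in B and 12.97 in N, and Sema4g (1.84) was the fourth higher in S. Plxna2 and Efna1 were just past 2-fold and fell short of it with the values as deposited (0.99 and 0.93). The 6 higher in B were 5 semaphorins and the Slit receptor Robo2 (-2.19). Sema3e was at 23.6 in B, 7.80 in S and 1.495 in N and Sema3c at 33.3 in B, 15.9 in S and 60.5 in N, and Sema3d (-2.01), Sema3f (-1.55) and Sema5a (-1.43) were the others. Of the 5, the Sema3 genes encode the secreted class 3, whereas Sema4a and Sema4b, of the membrane-bound class 4, had log2 ratios of -0.52 and 0.43.

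Neurotrophin and neuropeptide genes had 3 of 16 members higher in S and 2 in B. Ramp1, the partner of Calcrl in the receptor for the nerve peptide CGRP, was at 26.8 in S, 2.54 in B and 0.387 in N. Calcrl itself (-1.70) was higher in B, at 7.13 in B, 1.49 in S and 11.3 in N, so the 2 receptor parts had opposite orders. Ramp3 (1.15) and the neurotrophin receptor Ntrk3 (1.92) were higher in S. The neuropeptide gene Cck was higher in B. Gfra1, a receptor part for GDNF, was at 12.4 in S, 10.6 in B and 0.132 in N, and the endothelin receptor Ednra, the most abundant of the list after Cck, at 14.3 in S, 15.6 in B and 0.558 in N. Both were near 0 in N and close between the layers.

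Ion channels and mechanosensors had 6 of 30 members higher in S and 5 in B, with a median of 0.16. Mcoln3, a cation channel of endosomes and lysosomes, was at 12.3 in S, 0.528 in B and 0.0259 in N. Cacna1c, the pore of a voltage-gated calcium channel, was at 17.6 in S, 3.05 in B and 0.221 in N, and Kcnma1, a potassium channel opened by calcium, at 14.2 in S, 3.78 in B and 0.0163 in N. Kcnk2, a potassium channel opened by stretch, was at 26.5 in S, 11.4 in B and 0.0671 in N. All 4 channels were below 0.3 in N. Clic3 (1.10) and Clic4 (1.15) were the others higher in S. Towards B, Clca3a2 was at 98.7 in B, 12.7 in S and 300.3 in N and the sodium pump chain Atp1b3 at 86.3 in B, 37.03 in S and 178 in N, with N highest for both. Trpv4 (-2.10), a channel opened by heat and osmotic stretch, Kcnj2 (-1.91) and Clca2 (-1.21) were also higher in B. Aqp3, the main water channel of keratinocytes, was at 132 in S, 69.3 in B and 10.4 in N.

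In the FGF pathway, the ligand gene Fgf18 was higher in S, and the response genes past 2-fold were higher in B. Of 16 measured members, Fgf18 alone was higher in S and 5 were higher in B, and the median was -0.65. Among receptors, Fgfr1 was at 21.3 in B, 7.77 in S and 2.15 in N, Fgfr2 at 56.8 in B, 65.7 in S and 103 in N and Fgfr3 at 14.3 in B, 14.8 in S and 14.8 in N, so only Fgfr1 of these 3 was past 2-fold. Among genes that FGF signalling induces or that restrain it, Spred1 was at 11.8 in B, 2.46 in S and 5.52 in N. Spred2 (-1.59), Dusp6 (-1.40) and Etv5 (-1.10) were also higher in B than in S, but were highest in N. Levels were low for Dusp6, at 3.71 in B and 0.782 in S, and Etv5, at 1.79 in B and 0.302 in S. Spry1 and Spry2, inhibitors of the same pathway, had log2 ratios of -0.69 and -0.43. Flrt3, a membrane partner of FGF receptors, was at 46.1 in B, 24.5 in S and 35.4 in N. Fgf1 was at 15.02 in B, 9.59 in S and 0.371 in N, and Fgf11 was at 1.82 (S) and 1.30 (B).

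Other receptor tyrosine kinase pathways are given next. Of 11 genes of the EGF receptor pathway, the ligand Epgn (-2.15) was higher in B, and Egfr was at 21.5 in B, 23.7 in S and 16.95 in N. The median was -0.30, and at a mean of at least 5 it lay at 0.0441 relative to all genes. Of 10 IGF genes, 3 were higher in B, all binding proteins: Igfbp4, at 10.1 in B, 1.58 in S and 2.98 in N, Igfbp6 (-1.45) and Igfbp5 (-1.28). Igfbp3, the most abundant, was at 89.8 in S, 61.9 in B and 79.4 in N, and the receptor Igf1r at 4.75 in S, 3.34 in B and 4.54 in N. The median of the IGF list was 0.33, opposite in sign to its mean of -0.20, and without the filter it lay at -0.0335 relative to all genes. Of 16 genes of PDGF, VEGF and related factors, 4 were higher in B. The receptors Met, at 9.19 in B, 2.68 in S and 12.7 in N, and Axl, at 10.6 in B, 4.55 in S and 7.65 in N, were 2 of them, with the chemokine Cxcl14, at 80.7 in B, 34.3 in S and 17.3 in N, and Pdgfc (-1.25). Ptn, the growth factor pleiotrophin, was at 509.9 in S, 318 in B and 21.1 in N and was the most abundant growth factor gene of these lists.

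BMP and TGF-beta genes had 4 of 44 members higher in S and 6 in B, with a median of 0.06, whose side relative to all genes flipped with the scaling. Among ligands, Bmp6 was higher in S and Bmp4 (-1.66) and Gdf10 (-1.82) were higher in B. Bmp4 was at 3.30 in B, 0.362 in S and 12.7 in N, so N was its highest library. Among inhibitors, Grem1, a BMP antagonist, was higher in B at 33.3 in B, 12.7 in S and 0.393 in N, Nog (1.19) was higher in S at 4.02 in S, 1.19 in B and 0 in N, and Sostdc1 was close, at 86.96 (S) and 79.8 (B). Latent TGF-beta binding proteins were divided too, with Ltbp2, at 7.84 in B, 3.03 in S and 0.519 in N, and Ltbp1 (-2.12) higher in B and Ltbp3 and Ltbp4 within 2-fold. Htra1, a protease that limits TGF-beta signalling, was at 9.64 in B, 0.693 in S and 19.8 in N. Of the receptors, Bmpr1a was at 34.9 (S) and 26.95 (B) and Bmpr2 at 16.4 (S) and 17.9 (B). The target genes Id1, Id2 and Id3 had log2 ratios of -0.06, 1.07 and 0.52, and the signal transducer Smad9 (1.19) was higher in S.

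Wnt ligands and receptors had 2 of 28 members higher in S and 3 in B, with a median of -0.29. Relative to all genes that median was -0.36, and it became 0.0865 when the filter was taken over S and B alone. The frizzled receptors Fzd1, at 33.9 in S, 10.96 in B and 3.12 in N, and Fzd7, at 25.9 in S, 11.97 in B and 3.71 in N, were higher in S, while Fzd2 was at 13.7 in B, 6.62 in S and 0.922 in N. Fzd7 fell short of 2-fold with the values as deposited (0.97), on the same total (0.93) and on the same upper quartile (0.96). Lgr6, the ligand Wnt10a (-1.14) and the co-receptor gene Lrp4 (-1.43) were higher in B. Lgr4, which like Lgr5 and Lgr6 binds R-spondins, was the most abundant, at 57.5 in S, 35.6 in B and 8.83 in N. The 3 Lgr genes thus had log2 ratios of 0.68, 0.16 and -3.14. Wnt inhibitors and feedback genes had 5 of 17 members higher in B and 1 in S. Beside Sfrp1 and Dkk3, Tnfrsf19, a TNF receptor family member induced by Wnt signals, was at 10.4 in B, 0.514 in S and 50.9 in N, and the Wnt targets Axin2 (-2.02) and Apcdd1 (-1.56) were higher in B and highest in N. Nkd1 (1.07) was higher in S, at 2.68 in S, 0.747 in B and 0 in N.

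In the Hedgehog pathway, 3 of 10 members were higher in B and 2 in S. The co-receptors Cdon, at 11.8 in B, 3.95 in S and 3.67 in N, and Boc, at 10.7 in B, 4.23 in S and 2.06 in N, and the transcription factor Gli2 (-1.56) were higher in B, whereas another co-receptor, Gas1, was at 31.3 in B, 29.2 in S and 4.93 in N. Scube2, which helps release the ligand, was at 12.2 in S, 2.58 in B and 1.98 in N, and the inhibitor Hhip (1.03) was also higher in S. In the Notch pathway, 2 of 19 members were higher in each library. The receptor Notch1 was at 20.8 in S, 7.93 in B and 9.54 in N and its target Hey1 (1.84) at 5.77 in S, 0.893 in B and 0.682 in N, both higher in S. The ligand Dll1 (-1.53) and Lfng, a fringe enzyme that modifies Notch receptors, at 15.6 in B, 0.465 in S and 10.4 in N, were higher in B. The ligand Jag1 was at 19.7 (S) and 13.98 (B) and the target Hes1 at 11.5 (S) and 6.84 (B).

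YAP and TEAD pathway genes and targets had 4 of 26 members higher in B and 2 in S, with a median of 0.05. The targets Ccn1, Ccn2 and Axl and the regulator Ptpn14, at 8.95 in B, 3.92 in S and 19.9 in N, were those higher in B. Myof, at 17.1 in S, 7.43 in B and 4.31 in N, and Nuak2 (1.07) were higher in S, though Myof fell short of 2-fold on the same total (0.99). Yap1 was at 15.1 (S) and 16.9 (B) and its relative Wwtr1 at 5.39 (S) and 5.22 (B). The kinases Lats1 and Lats2 had log2 ratios of 0.31 and -0.40.

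Transcription factors of the follicle had 7 of 65 members higher in S and 4 in B, with a median of -0.06. Beside Nfatc1, Foxc1 and Foxp1, the 7 were Bach2, at 9.39 in S, 3.24 in B and 0.660 in N, Mitf, at 34.4 in S, 16.4 in B and 2.08 in N, Gata6 (1.28) and Foxn1 (1.43). The 4 higher in B were Snai2, at 30.3 in B, 10.6 in S and 21.4 in N, Sox6 (-3.12), Ikzf2 (-1.43) and Dlx3 (-1.41). Sox6 was nearly absent from S, with 8.82 in B, 0.127 in S and 22.3 in N. Trp63, the master regulator of stratified epithelia, was the most abundant, at 126 in B, 107 in S and 138 in N. Mitf is also a melanocyte gene. The 9 melanocyte genes summed to 35.5 in S, 17.7 in B and 2.41 in N, but apart from Mitf each was at most 0.513 in the bulge libraries, with Mlana, Sox10 and Slc45a2 at 0 in S. Mitf fell short of 2-fold with the values as deposited (0.94), on the same total (0.91) and on the same upper quartile (0.93).

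Genes of DNA replication and mitosis were mostly lower in S than in B. Of 29 measured, 9 were higher in B and 0 in S, and 27 had a log2 ratio below 0, with a median of -0.56. The 9, picked after their values were seen, were Ube2c, Rrm2, Kif23, Birc5, Top2a, Cdk1, Mki67, Ccna2 and Prc1. Rrm2, a subunit of ribonucleotide reductase, was at 5.90 in B, 1.01 in S and 3.54 in N, and Mki67, the classical mark of cycling cells, at 1.73 in B, 0.237 in S and 5.87 in N. N was highest for 8 of the 9, Rrm2 excepted. All 9 were low in the bulge libraries, with Rrm2 the highest of them in B. Mki67 and Birc5, with means of 0.983 and 0.893 over S and B, passed the filter of 1 only through N. So did Ccnb1, Ccnb2, Bub1b, Kif11, Tpx2, Nusap1, Hmmr and Uhrf1, with means from 0.382 to 0.931. All of these are among the 27 below 0, were near the floor in both bulge libraries and were highest in N. Pcna, the most abundant, was at 45.1 in B, 50.9 in S and 62.3 in N. Of 24 genes of D-type cyclins, CDK inhibitors and Rb proteins, the cyclins Ccnd1 (-1.98) and Ccnd2 (-1.99) and the kinase Cdk6 (-1.27) were higher in B. Cdkn1b, which encodes the inhibitor p27, was at 25.5 in S, 11.4 in B and 9.25 in N, and Cdkn2b (1.51) was also higher in S. On the same total Cdkn1b fell short of 2-fold (0.98). Cdkn1a, which encodes p21, was the most abundant, at 184 in S, 93.9 in B and 126 in N, with a log2 ratio of 0.96. Ccnd3, another D-type cyclin, was at 6.36 (S) and 7.37 (B).

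Cytokines, chemokines and their receptors had 13 of 41 members higher in B and 4 in S, with a median of -0.54. Il1rn, the interleukin 1 receptor antagonist, was at 18.8 in B, 5.28 in S and 69.8 in N, and Tnfrsf18 at 25.3 in B, 7.67 in S and 45.7 in N. With Tnfrsf19 and Cxcl14 they were the higher-level members among the 13. The other 9 were Ackr3, Il33, Il1r2, Il20ra, Cxcl10, Il6ra, Cxcl1, Il18r1 and Tnfrsf11b, all below 9 in B and picked after their values were seen. The 4 higher in S were Lifr, the receptor of leukemia inhibitory factor, at 17.9 in S, 7.53 in B and 9.36 in N, Tnfrsf23, at 10.97 in S, 4.19 in B and 1.53 in N, Tnfrsf22 (1.46) and the skin chemokine Ccl27a, at 876 in S, 302 in B and 839 in N. Tnfrsf22 and Tnfrsf23 are decoy receptors encoded side by side with similar sequences, and Ccl27a has near copies, so both pairs are uncertain. Genes of antigen presentation and interferon had 5 of 31 members higher in B and 0 in S, with a median of -0.35. B2m, which stabilises class I molecules, was at 1297 in B, 614 in S and 2576 in N. The interferon gamma receptor Ifngr1 was at 29.4 in B, 6.75 in S and 109 in N, H2-Q7 at 13.6 in B, 4.50 in S and 44.96 in N and Ifitm3 as above, and Nlrc5 (-1.05), an activator of class I genes, was the fifth. N was the highest library for all 5. H2-Q7 belongs to a family of similar genes.

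Markers of immune cells were looked at beside these lists. T and NK cell genes summed to 3.04 in S, 6.47 in B and 20.8 in N over 13 genes, with Thy1 at 0.673 in S, 4.99 in B and 18.3 in N and Gzmb and Ncr1 at 0 in both bulge libraries. Langerhans and myeloid genes summed to 76.8 in S, 37.9 in B and 72.0 in N over 14 genes. The most abundant was Epcam, at 55.9 in S, 21.7 in B and 24.6 in N, which epithelial cells also express. Cd207, which encodes langerin, was at 0.343 in S and 0.220 in B, while Cd68 (1.18) was at 6.02 in S, 2.11 in B and 1.69 in N. The class II gene H2-Aa was at 4.51 in S, 4.81 in B and 13.5 in N. The part of these cells in the cytokine and interferon values was not tested.

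Actin, myosin and tropomyosin genes had 3 of 37 members higher in S and 5 in B, with a median of -0.17 that turned to 0.29 relative to all genes at a mean of at least 5. Pdlim3, a protein of actin stress fibres, was at 25.95 in S, 7.53 in B and 0.00725 in N, Fhl1 at 20.3 in S, 8.20 in B and 3.10 in N and Actn1, an actin crosslinker, at 31.4 in S, 14.99 in B and 1.91 in N. Flna, the crosslinker filamin A, was at 23.3 in B, 8.03 in S and 20.9 in N, and Tpm2 (-1.40), Cnn2 (-1.38) and Cald1 (-1.27) were among the others higher in B. Actn1 fell short of 2-fold with the values as deposited (0.93), on the same total (0.90) and on the same upper quartile (0.92).

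Genes of glutathione and redox had 10 of 45 members higher in B and 2 in S, with a median of -0.22. Txnrd1, thioredoxin reductase 1, was at 33.3 in B, 5.83 in S and 22.1 in N, whereas Txnrd3 was at 265 in S, 77.3 in B and 82.9 in N, so 2 enzymes of 1 family had opposite orders. Gstm2, a glutathione transferase, was at 23.7 in B, 5.19 in S and 15.4 in N, Gpx8 at 15.01 in B, 4.74 in S and 9.85 in N and the carbonyl reductase Cbr2 at 45.9 in B, 15.9 in S and 55.997 in N. Duoxa1 (-1.28), the maturation factor of the oxidase Duox1, was at 66.7 in B, 26.9 in S and 1.41 in N, and Duox1 (-1.17) was higher in B with it. Nqo1 (-2.44), Aldh3a1 (-1.67), Gpx2 (-1.20) and Mgst2 (-1.13) complete the 10. Selenow, a small selenoprotein, was at 224 in S, 66.97 in B and 152 in N and was the second higher in S. Nfe2l2, the regulator of many of these enzymes, was at 15.7 in B, 11.2 in S and 24.9 in N, and Selenop, the most abundant, at 523 in S, 442 in B and 428 in N.

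Of 32 genes of glycolysis and hypoxia, Ndrg1 and Egln3, which respond to hypoxia, had higher levels in S, at 33.1 in S, 10.5 in B and 5.99 in N for Ndrg1 and 16.2 in S, 5.34 in B and 2.88 in N for Egln3, and Pfkfb3 (-1.97) was higher in B. Gapdh was at 94.9 (S) and 111 (B) and Hif1a at 20.2 (S) and 18.6 (B). Of 29 genes of sterol and fatty acid synthesis, Scd2 (-1.53) was higher in B and the rest were within 2-fold, with a median of -0.09. Apoe, the most abundant, was at 982 in B, 648 in S and 783 in N. All 53 measured nuclear genes of oxidative phosphorylation were within 2-fold, from -0.71 for Ndufs8 to 0.40 for Cox8a. Their median, 0.06, equals that of all genes when rounded, and its side relative to all genes flips with the scaling. All 13 mitochondrially encoded genes were within 2-fold as well, from 0.23 for mt-Nd1 to 0.89 for mt-Nd6, with a median of 0.56. Of the summed FPKM, mitochondrial tRNA made up 71.0% in S and 0 in B, and mitochondrial rRNA 11.1% and 32.3%. A single tRNA gene, mt-Tl1, was listed at 1.69e+06 FPKM as deposited in S and at 0 in B and N. Both shares are of the same total, so the large tRNA share in S lowers the rRNA share there. FPKM is per kilobase of transcript, so these are not shares of the fragments. The part of these RNAs in the mitochondrial values was not tested. The 79 cytosolic ribosomal protein genes ranged from -0.40 to 0.19, with a median of -0.06.

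Of 29 immediate early and AP-1 genes, which respond early to stress, 2 were higher in B and 0 in S, with a median of 0.24. That share past 2-fold is near the 9.80% of all genes. Nr4a1, a nuclear receptor, was at 19.4 in B, 6.42 in S and 39.4 in N, and Fosl1 (-1.66) was the other. Hspb1, the small heat shock protein, was the most abundant, at 279 in S, 179 in B and 137 in N. Fos was at 200.02 in S, 169.6 in B and 239 in N, Jun at 103 in S, 63.8 in B and 75.3 in N and Egr1 at 186 in S, 124 in B and 135 in N.

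Short non-coding RNAs had a larger share past 2-fold than protein-coding genes, in both directions. Of 123 miRNA genes, 30 were higher in S and 43 in B, and of 178 snoRNA genes 55 and 42. Of 78 snRNA genes the counts were 18 and 35, against 2.84% and 4.44% of the protein-coding genes. Many of them were listed at 0 in 1 library and high in another, such as Snord33 (339 in B, 0 in S and 259 in N) and Snord69 (212 in S, 0 in B and 0 in N), both picked after their values were seen. No folds are given for genes at 0. Among long non-coding RNAs, 6 of 172 lincRNA genes were higher in S and 14 in B. Pvt1, the neighbour of Myc, also picked in that way, was at 12.5 in S, 2.87 in B and 0.601 in N. Myc itself was at 39.6 in S, 21.5 in B and 37.8 in N. Of 202 antisense genes, 11 were higher in S and 12 in B. Prss23os, at 29.7 in B, 3.48 in S and 10.5 in N, overlaps the protease gene Prss23, at 28.9 in B, 3.61 in S and 10.1 in N, and without strand their reads cannot be told apart.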

How the data were processed

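RNA of 3 sorted populations (N, S and B; 1 library each from 4 pooled mice) was amplified isothermally with poly(T) plus random primers and sequenced as 75 bp pairs, per the labels' protocols. The deposited values are FPKM per gene, normalized by the authors for length and depth. Per the submitters' processing notes, TopHat2 2.0.12, Cufflinks 2.1.1, DESeq2 and mm10 were used, with roles not given in the sources used here. That the basal column holds FPKM was judged from its values. Of 49452 identifiers per library, 49195 had a symbol and 257 did not.

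Values of 1 symbol were summed and divided by median-of-ratios factors over 18559 genes above 0 in all 3 libraries (N 1.10, S 0.923, B 0.981). Ratios used log2(level + 1), which understates differences of low genes. With 1 library per population no test fits, so a log2 ratio of 1 was the rule. The steps between low FPKM values of long single-exon genes gave the depth. At that depth 94.7% (N), 97.2% (S) and 96.3% (B) of values came out whole within 0.1 of a fragment. By chance 20% would at a depth set beforehand. The depth was the one that made these same values most nearly whole, so the shares do not test it.

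Genes named were 4 given markers, the 25 largest ratios each way with at least 10 FPKM in the higher library, and, per list, up to 4 members each way past 2-fold with a mean of at least 5 in S and B plus the most abundant member. The members and lists were chosen with earlier results of these data known. Scaling, pseudocount, filter and threshold alternatives were tried. Analyses used Python 3.11.15, numpy 2.4.6, pandas 2.3.3 and matplotlib 3.10.9. Some items are not reported here.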

Additional observations from a re-analysis of the deposited data

How the results depend on the processing

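The counts past 2-fold, 448 for S and 686 for B, were 378 and 727 with the values as deposited, 427 and 688 with scaling over S and B alone, 377 and 806 on the same total, and 381 and 763 on the same upper quartile. On the same total the median of all genes shifted by -0.10. S had 39.5% of all calls, and 31.9% to 41.0% over the settings of scaling, pseudocount and filter. A pseudocount of 0.1 gave 646 and 1074 and one of 5 gave 188 and 277. A mean of at least 5 left 237 and 341, protein-coding genes alone 282 and 440, and a 4-fold threshold 146 and 231, each testing fewer genes or a larger difference by construction. No filter gave 522 and 797, and a filter over S and B alone 480 and 692.

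Relative to all genes, the list median turned sign without the filter for matrix proteases (0.47 to -0.035) and the IGF pathway (0.27 to -0.0335). At a mean of at least 5 it turned for the EGF receptor pathway (-0.36 to 0.0441) and Wnt ligands and receptors (-0.36 to 0.091), the latter also with the filter over S and B alone (0.0865). The causes were not tested beyond the change of members tested. In all, 12 of 43 lists changed sign in some setting. Of 138 named genes past 2-fold, 106 were past it in every setting of scaling, pseudocount and filter that kept them. Of these 138, 0 changed sign. Changes of sign were not counted for the rest of the 175 named genes, which were within 2-fold. No paired analysis was possible because there was 1 library per population.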

Other observations

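Genes outside the lists also set the layers apart, and those named here were picked after their values were seen. Towards S, Plat, the tissue plasminogen activator, was at 10.3 in S, 1.70 in B and 0.614 in N, and Gatm, an enzyme of creatine synthesis, at 4.09 in S, 0.0537 in B and 0 in N. Cst3, the protease inhibitor cystatin C, was at 739 in S, 342 in B and 377 in N. Nxph1, a ligand of neurexins, was at 4.21 (S) and 0.0619 (B), the secreted protein Nell1 at 8.86 (S) and 0.176 (B) and the serotonin receptor Htr1d at 4.46 (S) and 0.534 (B). The circadian regulator Nfil3 was at 47.4 in S, 9.84 in B and 3.41 in N. For the genes of this paragraph so far, Cst3 excepted, N was lowest. Selenot, a selenoprotein of the endoplasmic reticulum, was at 307 in S, 131 in B and 214 in N.

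Towards B, Cav1, the coat protein of caveolae, was at 188 in B, 41.5 in S and 108 in N, and Lgals1, the lectin galectin-1, at 9.47 in B, 1.26 in S and 0.615 in N. Crip1, a LIM domain protein, was at 444 in B, 164 in S and 43.2 in N. Alcam, a cell adhesion molecule, was at 40.1 in B, 16.9 in S and 4.19 in N, and the matrix protein Hmcn1 at 16.6 in B, 6.70 in S and 1.11 in N. Ly6d and Ly6g6c, surface proteins of the Ly6 family encoded in clusters of similar genes, were at 206 in B, 27.6 in S and 736 in N and 329.9 in B, 158 in S and 444 in N. Psat1, an enzyme of serine synthesis, was at 21.8 in B, 2.95 in S and 88.3 in N, and the prostaglandin synthases Ptges and Hpgds at 8.51 (B) and 1.10 (S) and 6.48 (B) and 0.618 (S). Clu, the chaperone clusterin, was at 8.74 in B, 1.41 in S and 13.9 in N.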
